A study of Mus musculus with 17 samples.

Results

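The hypoxia response and oxygen storage genes were examined in the infarct zone (IZ) of the mouse heart 5 d after myocardial infarction (MI). They are 10 genes named by symbol, Hif1a, Epas1, Egln1, Egln3, Mb, Cygb, Bnip3, Ndufa4l2, Adm and Ero1l, of 31647 features in the count table. All 10 passed the filter on low counts and were tested, among 12301 features tested in all. Hearts came from male C57BL/6J wild-type mice aged 8 to 11 weeks, so no group carried a transgene or deletion. In 9 mice the left anterior descending artery (LAD) had been ligated permanently and the IZ was taken 5 d later. The other 8 mice had sham surgery without ligation, and left ventricular (LV) tissue was taken after the same 5 d. RNA was sequenced from the 3' end of each transcript with molecular identifiers (MACE-Seq), and reads were counted per gene.

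Cells sense oxygen through hypoxia-inducible factors (HIFs), which pair an oxygen-labile alpha subunit (HIF-1 alpha from Hif1a or HIF-2 alpha from Epas1) with a stable partner from Arnt. With oxygen present, prolyl hydroxylases encoded by Egln1, Egln2 and Egln3 mark the alpha subunit, and the VHL ubiquitin ligase has it degraded. Much of this control acts on protein stability, which transcript counts do not measure. When oxygen is scarce the HIF dimer binds DNA at a short core and raises target genes for glycolysis, vessel growth, mitophagy and protein folding, among them Egln3 itself. Myoglobin (Mb) stores oxygen in cardiomyocytes, and cytoglobin (Cygb) is a related haem protein of fibroblasts and other stromal cells.

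The HIF binding core was searched in the promoter sequences of these genes, because targets of HIF were found to differ between the groups in opposite directions. RefSeq sequences of the mouse build GRCm38.p6 were matched for 7 of the 10 genes (Hif1a, Egln1, Egln3, Mb, Bnip3, Adm and Ero1l, the last under its newer symbol Ero1a). The core was ACGTG or GCGTG on either strand, so that a CACGTG counted once on each strand. Within the 250 bases before the start it was present in 6 of the 7 genes, and in 38.6% of all 32851 promoter windows of that length. The first share counts genes, with the 3 starts of Mb as 1 gene, and the second counts windows, so they are not in the same unit. Egln1 had 2 cores (first bases at -126 and -68 from the start), Egln3 had 1 (-229), Bnip3 had 5 (-117, -108, -107, -99 and -35), Adm had 2 (-90 and -54), Ero1l had 3 (-128, -88 and -63) and Hif1a had 3 (-135, -134 and -70). None of the 3 listed starts of Mb had one in this window. The windows of the prolyl hydroxylases, of the 3 HIF targets and of the second listed start of Mb are given 5′ to 3′ on the strand of the gene, with the cores in capitals. A match in these letters is not a measurement of binding.
Egln1 (chr8:124949255-124949504, minus strand): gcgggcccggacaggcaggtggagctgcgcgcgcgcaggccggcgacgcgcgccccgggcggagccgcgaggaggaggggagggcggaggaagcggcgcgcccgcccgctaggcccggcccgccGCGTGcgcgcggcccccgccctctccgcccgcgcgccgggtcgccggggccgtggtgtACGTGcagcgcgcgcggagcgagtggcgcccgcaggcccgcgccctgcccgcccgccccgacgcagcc
Egln3 (chr12:54203875-54204124, minus strand): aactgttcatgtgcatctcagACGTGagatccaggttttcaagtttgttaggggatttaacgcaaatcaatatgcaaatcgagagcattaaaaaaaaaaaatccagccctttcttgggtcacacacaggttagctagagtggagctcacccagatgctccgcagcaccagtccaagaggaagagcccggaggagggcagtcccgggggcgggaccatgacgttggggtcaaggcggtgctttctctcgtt
Bnip3 (chr7:138909507-138909756, minus strand): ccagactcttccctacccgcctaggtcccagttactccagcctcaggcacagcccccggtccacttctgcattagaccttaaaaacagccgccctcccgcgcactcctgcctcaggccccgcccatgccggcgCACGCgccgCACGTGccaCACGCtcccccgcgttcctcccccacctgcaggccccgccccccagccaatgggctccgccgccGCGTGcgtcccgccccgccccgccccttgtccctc
Adm (chr7:110627407-110627656, plus strand): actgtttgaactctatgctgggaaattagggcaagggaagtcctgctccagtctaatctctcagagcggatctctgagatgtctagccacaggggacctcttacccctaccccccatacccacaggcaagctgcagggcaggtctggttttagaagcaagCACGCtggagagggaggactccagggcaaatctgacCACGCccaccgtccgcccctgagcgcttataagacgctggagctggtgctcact
Ero1l (chr14:45318573-45318822, minus strand): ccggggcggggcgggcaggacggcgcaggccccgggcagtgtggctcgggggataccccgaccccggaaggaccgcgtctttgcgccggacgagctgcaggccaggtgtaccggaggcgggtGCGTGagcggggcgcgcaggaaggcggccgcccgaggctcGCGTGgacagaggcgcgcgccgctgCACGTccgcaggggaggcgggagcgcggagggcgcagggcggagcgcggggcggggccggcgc
Mb (chr15:77022788-77023037, minus strand): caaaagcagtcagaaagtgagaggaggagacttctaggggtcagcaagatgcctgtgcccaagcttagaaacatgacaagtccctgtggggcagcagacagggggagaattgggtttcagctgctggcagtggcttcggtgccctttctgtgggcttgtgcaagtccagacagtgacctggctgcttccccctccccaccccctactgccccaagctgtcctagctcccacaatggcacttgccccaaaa

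Between IZ and sham, 9 of the 10 genes passed the test (edgeR quasi-likelihood F-test, Benjamini-Hochberg adjusted p under 0.05), against 69.5% of all features tested. Hif1a, Cygb, Ndufa4l2 and Ero1l were upregulated in the IZ, 4 of 10 where 36.3% of all features were. Epas1, Egln1, Egln3, Mb and Bnip3 were downregulated, 5 of 10 where 33.1% of all features were. Since most features were called, the count of 9 by itself is not read as a result on these genes. All 9 IZ libraries lay below all 8 sham libraries for Epas1, Egln1, Mb and Bnip3, a pattern shown by 16.5% of all features, and above them for Hif1a, shown by 16.6% of all features. The median log2 fold change was -0.95 over the 10 genes and 0.05 over all features tested.

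Library scaling and the make-up of the tissue bear on each of these values. Total counts ran from 1237675 to 4738307 per library, and levels are given in CPM, the usual rescaling of a count by its library size, which was adjusted by TMM (trimmed mean of M values). Scaling by total counts alone instead moved the median log2 fold change of all features by 1.09, from 0.05 to 1.14, and raised the share of calls that were upward from 52.3% to 85.8%. Under that scaling the 9 called genes kept their direction and their call, and Adm turned. IZ replicate 1 stood apart, with 19.5% of its counts on mitochondrially encoded features against 4.22% to 6.78% in the other IZ libraries and 22.9% to 32.4% in sham. Summed cardiomyocyte markers ran from 70001 to 83517 CPM in sham and from 3081 to 7309 CPM in the IZ without replicate 1, which had 31999 CPM. IZ replicate 1 was the highest IZ library for 7 of the 10 genes (Epas1, Egln1, Egln3, Mb, Cygb, Bnip3 and Adm). Without it all 10 genes were called, 4 upward and 6 downward. The share of all features called in that fit is not given here, so this count is not read as a result. In bulk tissue, fewer cells of a type and less RNA per cell cannot be told apart.

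Of the marker lists, 10 of 10 cardiomyocyte genes were downregulated, 6 of 7 fibroblast genes and 7 of 7 macrophage and monocyte genes were upregulated. Among all features 33.1% were downregulated and 36.3% upregulated. Summed fibroblast markers ran from 1446 to 2748 CPM in sham and from 10704 to 18731 CPM in the IZ, and summed macrophage markers from 346 to 503 CPM and from 1893 to 5139 CPM. Among endothelial markers 3 of 7 were downregulated and none was upregulated, and their sum ran from 1465 to 2624 CPM in sham and from 594 to 1186 CPM in the IZ. Of the pericyte and smooth muscle markers 1 of 7 was upregulated and 4 were downregulated, with sums of 515 to 753 CPM in sham and 255 to 510 CPM in the IZ. Under scaling by total counts alone, 1 of the 3 endothelial and 1 of the 4 pericyte and smooth muscle genes turned positive, and the endothelial calls became 4 upward and 2 downward. Neutrophil markers were upregulated for 3 of 3 tested genes, with sums of 3.85 to 11.7 CPM in sham and 14.9 to 209.9 CPM in the IZ. Of the skeletal muscle markers 1 of 2 tested was upregulated, Myh4 was at 0 in all libraries, and sums were 0.792 to 13.9 CPM in sham and 7.36 to 19.97 CPM in the IZ. None of the 4 adipocyte markers was tested, and their sum was 1.64 to 23.3 CPM in sham and 0 to 206.4 CPM in the IZ, highest in replicates 2, 3 and 7. The 5 erythroid markers were not called. The part of these cell types in the results on the hypoxia genes was not tested.

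**Figure D1:**
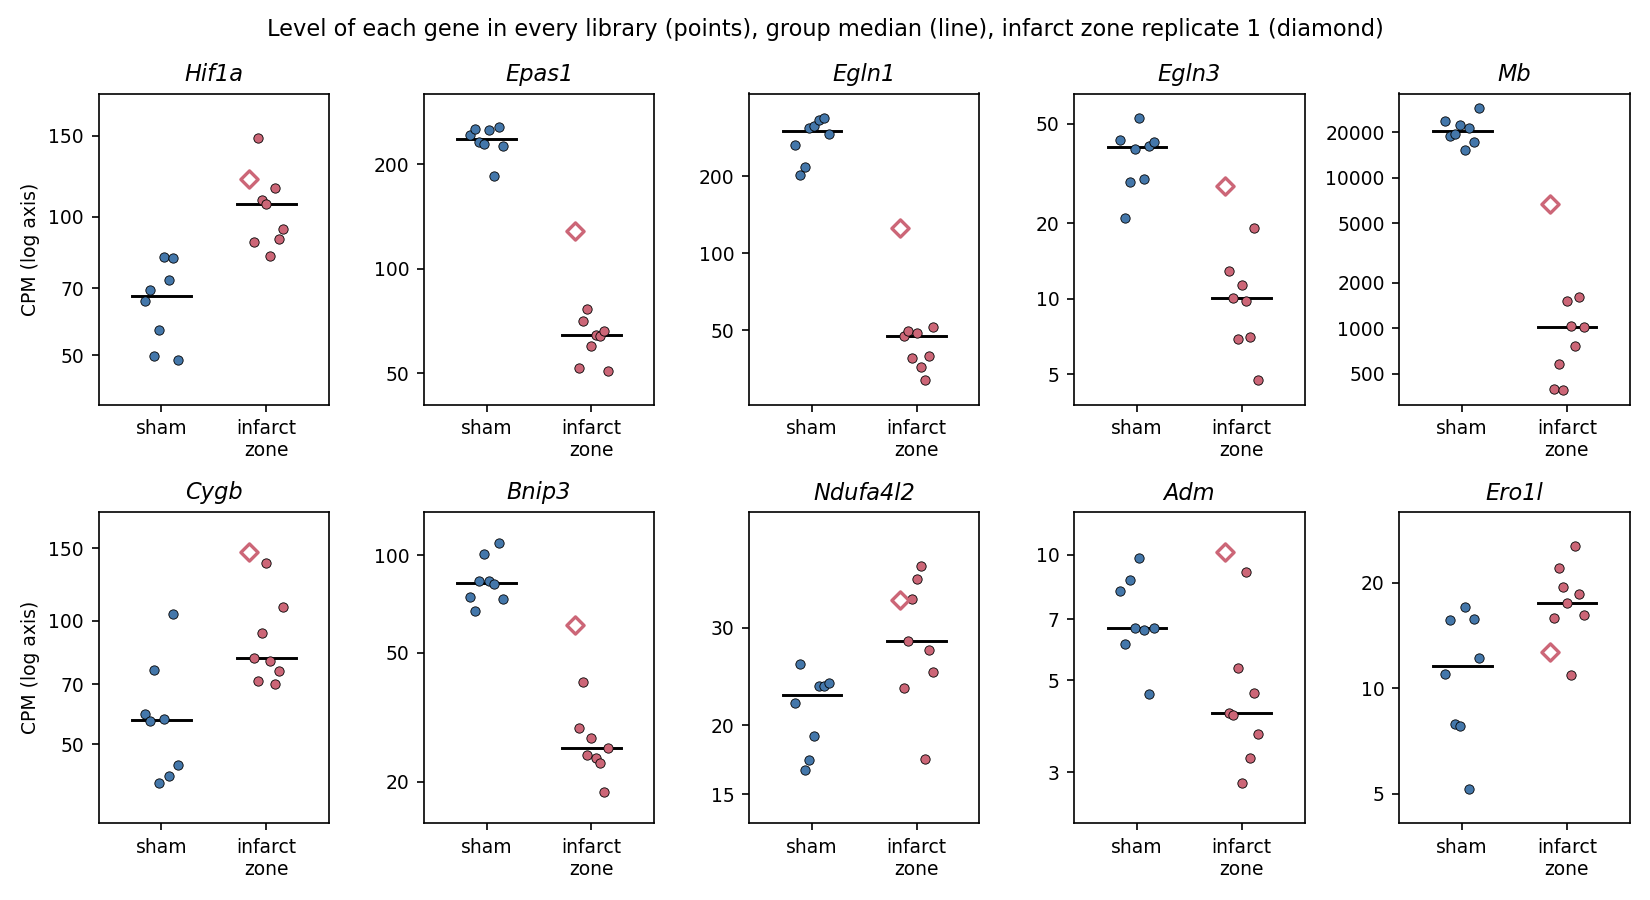
Level of each of the 10 genes in CPM (log axis, with its own range in each panel) in 8 sham and 9 IZ libraries, each point 1 library, the line the group median and the diamond IZ replicate 1. The groups do not overlap for Hif1a, Epas1, Egln1, Mb and Bnip3, and the diamond is the highest IZ point for 7 genes.

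The genes of the HIF alpha subunits moved in opposite directions. Hif1a (ENSMUSG00000021109, GRCm38 chr12:73901375-73947530, plus strand) ran from 48.9 to 81.8 CPM in sham with a median of 67.5 CPM, and from 82.1 to 148.2 CPM in the IZ with a median of 106.5 CPM. The groups did not overlap, but the lowest IZ library and the highest sham library nearly met. Its log2 fold change was 0.68 ± 0.14 (SE, edgeR adjusted p = 0.000106). Epas1 (ENSMUSG00000024140, chr17:86753700-86833410, plus strand), strongly expressed in endothelium, ran from 184.5 to 255.7 CPM in sham with a median of 236.8 CPM. In the IZ it ran from 50.7 to 128.3 CPM with a median of 64.3 CPM, and the highest value was that of replicate 1. Every IZ library was below every sham library, and the log2 fold change was -1.73 ± 0.15 (SE, edgeR adjusted p = 9.18e-10). Within each library, the log2 ratio of Hif1a to Epas1, which does not depend on library scaling, lay between -2.20 and -1.34 in sham and between -0.09 and 1.06 in the IZ. The ratio was higher in all 9 IZ libraries than in any sham library, and the group means differed by 2.46 on the log2 scale. Without IZ replicate 1 this difference was 2.55. A pair of annotated genes shares exon bases with Hif1a. Gm15283 on the opposite strand shares 330 and held 36 counts over all libraries. The protein-coding Gm49321 on the same strand shares 148 and is not a feature of its own in the count table.

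Of the 5 partner and coregulator genes tested, 2 were downregulated and none upregulated, against 33.1% and 36.3% of all features. The 2 of 5 is near that share and is not read as a result on these genes. Scaled by total counts alone 4 were upregulated and 1 downregulated. Arnt, the shared beta subunit, averaged 30.4 ± 3.54 CPM over the sham libraries (SD, n = 8) and 32.2 ± 7.14 CPM over the IZ libraries (SD, n = 9), a log2 fold change of 0.07 ± 0.13 that did not pass the test (edgeR adjusted p = 0.636). The coactivators Crebbp (log2 fold change -0.23 ± 0.15) and Ep300 (0.08 ± 0.16) did not pass it either, with edgeR adjusted p values of 0.17 and 0.674. Cited2, which competes with HIF-1 alpha for these coactivators, was downregulated (-0.74 ± 0.13, SE), but turned to 0.35 under scaling by total counts alone. Its relative Cited4 was downregulated by a log2 fold change of -2.51 ± 0.41 (SE), and of -3.30 without IZ replicate 1. Arnt2 and Hif3a were too low to test, with at most 10 and 6 counts in any library.

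The prolyl hydroxylase genes were downregulated together. Egln1 (ENSMUSG00000031987, chr8:124908587-124949324, minus strand) encodes the main HIF prolyl hydroxylase, PHD2. It ran from 202.2 to 337.0 CPM in sham with a median of 301.6 CPM, and from 32.0 to 125.0 CPM in the IZ with a median of 47.5 CPM. No IZ library reached the sham range, and replicate 1 was the highest of them. The log2 fold change was -2.44 ± 0.22 (SE, edgeR adjusted p = 1.04e-09). Egln3 (ENSMUSG00000035105, chr12:54178981-54203860, minus strand) encodes PHD3, a hydroxylase that HIF itself induces. It ran from 21.0 to 52.8 CPM in sham with a median of 40.2 CPM, and from 4.73 to 28.3 CPM in the IZ with a median of 10.1 CPM. Of the 9 IZ libraries 8 lay below all sham libraries, and replicate 1 lay within the sham range. Its log2 fold change was -1.64 ± 0.26 (SE, edgeR adjusted p = 6.29e-06).

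Relative to Egln1, Egln3 was higher in most IZ libraries. The log2 ratio of Egln3 to Egln1 within a library lay between -3.45 and -2.57 in sham and between -3.34 and -1.04 in the IZ, and 8 of the 9 IZ libraries were above all sham libraries. IZ replicate 9 was the exception, with the lowest Egln3 level of all libraries. The third hydroxylase gene, Egln2, fell from 54.6 ± 7.48 CPM (SD, n = 8) to 42.3 ± 5.87 CPM (SD, n = 9), a log2 fold change of -0.37 ± 0.11 that passed the test but became 0.71 under scaling by total counts alone.

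Of the 10 other genes of oxygen sensing and HIF degradation, 6 were downregulated and 1 was upregulated, against 33.1% and 36.3% of all features. Of the 6, all but P4htm changed sign when scaled by total counts alone, where 7 genes of the list were upregulated and 1 downregulated. The upregulated gene was Vhl, which encodes the substrate receptor of the ubiquitin ligase. It rose from 8.67 ± 2.48 CPM (SD, n = 8) to 17.7 ± 3.53 CPM (SD, n = 9), with a log2 fold change of 0.99 ± 0.18 (SE, edgeR adjusted p = 3.58e-05). The other ligase parts were Cul2 at -0.82 ± 0.14, Eloc at -0.36 ± 0.10 and Rbx1 at -0.34 ± 0.11 on the log2 scale (SE), all downregulated, and Elob at -0.02 ± 0.10, not called. The call of Rbx1 was lost under upper quartile scaling (adjusted p = 0.0748), and those of Rbx1 and Eloc were lost with no filter on low counts (adjusted p = 0.0779 and 0.0516). Hif1an, the asparagine hydroxylase that blocks coactivator binding, was downregulated at -0.98 ± 0.15, and P4htm, a membrane-bound hydroxylase, at -2.03 ± 0.36. P4htm reached no more than 31 counts in a library and was filtered out when IZ replicate 1 was omitted. Siah1a (-0.33 ± 0.20) and Siah2 (0.38 ± 0.20), ligases that act on the prolyl hydroxylases, were not called. Siah1a became downregulated without sham replicate 1 (adjusted p = 0.0485), and Siah2 upregulated without sham replicate 6 (adjusted p = 0.0394) and under upper quartile scaling (adjusted p = 0.0324).

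**Figure D2:**
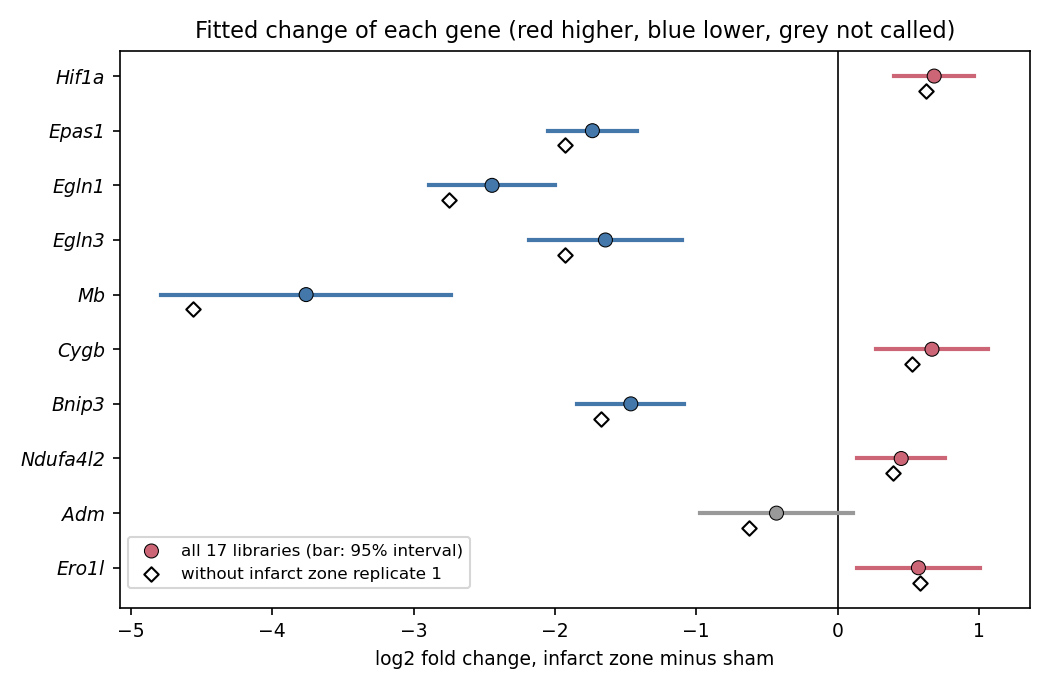
Log2 fold change of each gene between IZ and sham from the edgeR fit over 17 libraries, with its 95% interval as a bar, and the same fit without IZ replicate 1 as diamonds. Mb had the lowest value, -3.76, which became -4.56 without that library, and only the interval of Adm includes 0.

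The 2 oxygen-binding genes of the tissue cells differed in direction. Mb (ENSMUSG00000018893, chr15:77015487-77050670, minus strand) ran from 15402 to 29052 CPM in sham with a median of 20501 CPM. In the IZ it ran from 389 to 6648 CPM with a median of 1023 CPM. All IZ libraries were far below sham. Replicate 1 was the highest of them, and the next highest had 1607 CPM. The log2 fold change was -3.76 ± 0.50 (SE, edgeR adjusted p = 4.64e-07), and -4.56 ± 0.27 (SE, adjusted p = 9.74e-15) without replicate 1. The IZ mean was 1551 ± 1961 CPM (SD, n = 9) with that library and 914 ± 471 CPM (SD, n = 8) without it. Relative to the sum of 10 cardiomyocyte markers, Mb was also lower in most IZ libraries. The markers did not move alike. Their median log2 fold change was -3.27, while Myh6 at -3.89 and Tnni3 at -4.19 fell more than Mb. The log2 ratio of Mb to the sum of 10 cardiomyocyte markers lay between -2.25 and -1.49 in sham and between -3.18 and -1.90 in the IZ, and 6 of 9 IZ libraries were below all sham libraries. The group means differed by -0.61 on the log2 scale, and by -0.64 without IZ replicate 1. Mb shares 64 exon bases with Apol6 on the opposite strand, which held 96 counts over all libraries. A larger overlap, of 412 exon bases, is with Gm49540 on the opposite strand, which is not a feature of its own in the count table.

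Cygb (ENSMUSG00000020810, chr11:116645595-116654313, minus strand) ran from 40.1 to 103.6 CPM in sham with a median of 57.2 CPM, and from 69.96 to 147.1 CPM in the IZ with a median of 81.1 CPM. The groups overlapped, with 3 of 9 IZ libraries above all sham libraries and sham replicate 7 within the upper part of the IZ range. Cygb had a log2 fold change of 0.67 ± 0.19 (SE, edgeR adjusted p = 0.00377), and 0.53 without IZ replicate 1. The log2 ratio of Cygb to Mb lay between -9.34 and -7.37 in sham and between -5.49 and -2.06 in the IZ, so that all IZ libraries were above all sham libraries, with group means 5.03 apart. Cygb shares 201 exon bases with Prcd on the opposite strand, which held 87 counts over all libraries. Of the blood globins, Hba-a1 (0.36 ± 0.32), Hba-a2 (0.32 ± 0.32), Hbb-bs (0.10 ± 0.31) and Hbb-bt (0.10 ± 0.29) did not pass the test on the log2 scale (SE). Without IZ replicate 9, which had the highest sum of erythroid markers (15353 CPM), their signs were negative. The fit with the replicate number as a block also leaves that library out, and its signs were negative too. Under scaling by total counts alone 4 of 4 were upregulated. Neuroglobin (Ngb) and androglobin (Adgb) were too low to test, with at most 5 and 10 counts in any library.

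The HIF targets Bnip3 and Ndufa4l2 act on mitochondria, and they differed in direction. Bnip3 (ENSMUSG00000078566, chr7:138890836-138909519, minus strand), a receptor for mitophagy on the outer membrane, ran from 67.2 to 109.0 CPM in sham with a median of 82.4 CPM. In the IZ it ran from 18.6 to 60.9 CPM with a median of 25.3 CPM. The groups did not overlap, although replicate 1 came close to the sham range. Bnip3 had a log2 fold change of -1.46 ± 0.18 (SE, edgeR adjusted p = 2.2e-07). Its relative Bnip3l, also a HIF target and mitophagy receptor, rose from 73.6 ± 6.3 CPM (SD, n = 8) to 98.8 ± 12.9 CPM (SD, n = 9), a log2 fold change of 0.43 ± 0.10 (SE, edgeR adjusted p = 0.000594). The log2 ratio of Bnip3 to Bnip3l lay between -0.14 and 0.52 in sham and between -2.71 and -0.46 in the IZ. It was lower in all 9 IZ libraries than in any sham library, and the means differed by -1.95, or by -2.12 without IZ replicate 1. Bnip3 shares 504 exon bases with Gm45507 on the opposite strand, which is not a feature of its own in the count table.

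Ndufa4l2 (ENSMUSG00000040280, chr10:127514967-127517154, plus strand), a mitochondrial protein induced by HIF-1 and found in pericytes, ran from 16.6 to 25.8 CPM in sham with a median of 22.7 CPM. In the IZ it ran from 17.4 to 38.9 CPM with a median of 28.3 CPM. The groups overlapped, with 6 of 9 IZ libraries above all sham libraries and replicate 7 near the lowest sham value. Ndufa4l2 had a log2 fold change of 0.45 ± 0.15 (SE, edgeR adjusted p = 0.0109). Ndufa4, the related subunit of cytochrome c oxidase, fell from 2272 ± 219 CPM (SD, n = 8) to 306 ± 131 CPM (SD, n = 9), a log2 fold change of -2.89 ± 0.20 (SE). The log2 ratio of Ndufa4l2 to Ndufa4 lay between -7.21 and -6.35 in sham and between -4.25 and -2.53 in the IZ, with no overlap and with means 3.39 apart. The third relative, AA467197, reached no more than 2 counts per sham library and had from 14 to 119 counts in the IZ libraries. Its IZ mean of 11.5 ± 5.52 CPM (SD, n = 9) was at least 6.42-fold higher than the level of 3 counts per sham library. Ndufa4l2 shares 32 exon bases with Shmt2 on the opposite strand, which held 1327 counts over all libraries, and whether the counting used strand is not given in the sources used here.

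**Figure D3:**
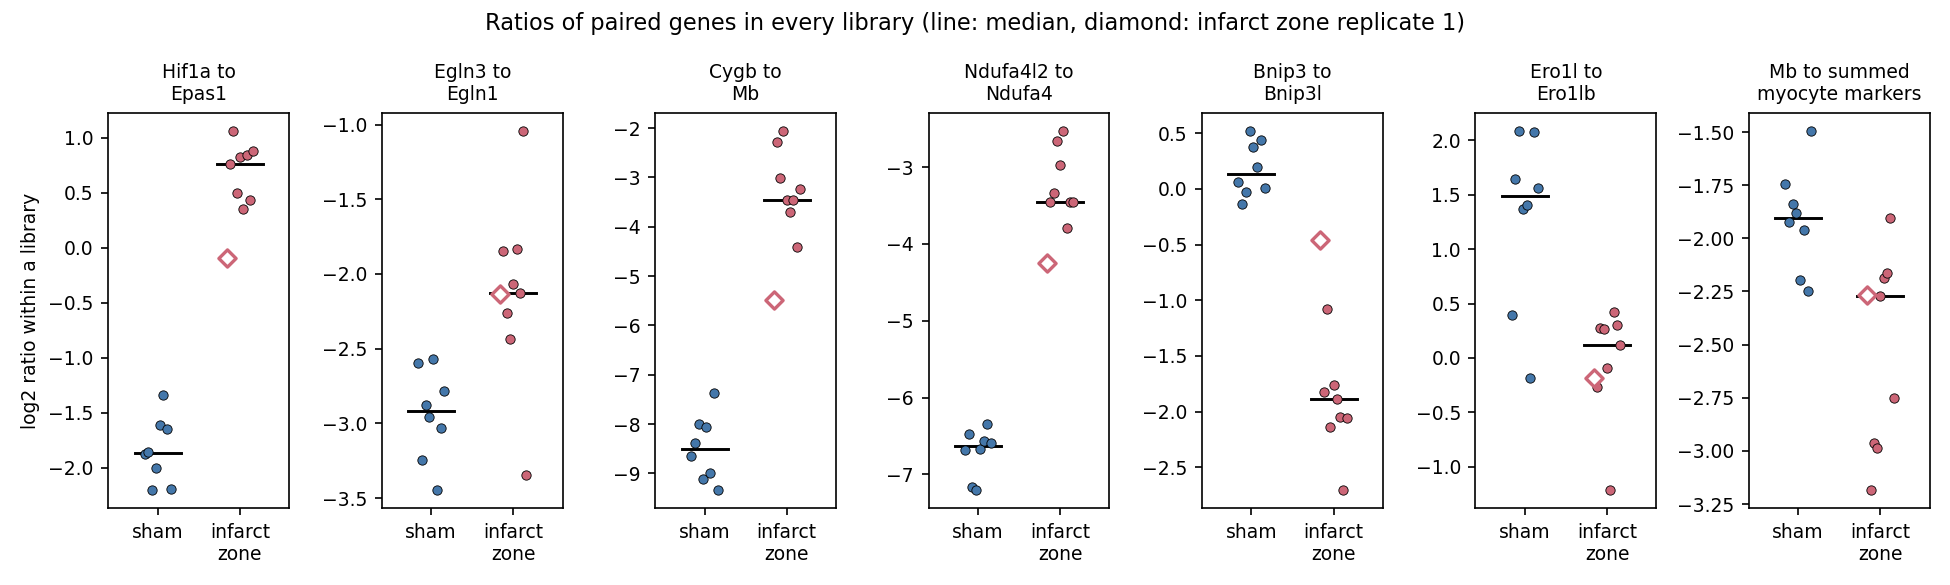
Log2 ratio of paired genes within each of 8 sham and 9 IZ libraries, each point 1 library, the line the group median and the diamond IZ replicate 1 (each panel has its own range). The groups do not overlap for Hif1a to Epas1, Cygb to Mb, Ndufa4l2 to Ndufa4 and Bnip3 to Bnip3l, and they overlap for the other 3 ratios.

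Adm (ENSMUSG00000030790, chr7:110627661-110629820, plus strand) encodes adrenomedullin, a vasodilator peptide that hypoxia induces in many cells. It ran from 4.62 to 9.83 CPM in sham with a median of 6.68 CPM, and from 2.83 to 10.1 CPM in the IZ with a median of 4.17 CPM. The groups overlapped, with 5 of 9 IZ libraries below all sham libraries and replicate 1 above all of them. The log2 fold change of -0.43 ± 0.26 (SE, edgeR adjusted p = 0.144) did not pass the test, and its 95% interval was -0.97 to 0.11. Adm had only 5 to 30 counts per library. Without IZ replicate 1 it was downregulated (-0.63, adjusted p = 0.0247), and under scaling by total counts alone it was upregulated (0.62, adjusted p = 0.0235).

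The receptor and processing genes of adrenomedullin were mostly lower. Of 6 tested genes 5 were downregulated and none was upregulated, against 33.1% and 36.3% of all features. However, 3 of the 5 turned positive when scaled by total counts alone, where 3 were upregulated and 2 downregulated. The scavenging receptor gene Ackr3 fell from 92.7 ± 10.2 CPM (SD, n = 8) to 21.7 ± 8.32 CPM (SD, n = 9), a log2 fold change of -2.09 ± 0.18 (SE). Mme, which encodes the peptidase neprilysin, was downregulated by -2.69 ± 0.35, and both kept their direction under that scaling. Ramp1 (-0.77 ± 0.18) and Pam (-0.61 ± 0.16), the latter the enzyme that amidates the peptide, were downregulated, and so was Ramp2 (-0.34 ± 0.15, adjusted p = 0.0477). The call of Ramp2 was lost in 11 of the 17 fits that omitted a single library (sham replicates 2, 3 and 8 and IZ replicates 2 to 9), with adjusted p values up to 0.115. It was also lost under other settings, among them upper quartile scaling (adjusted p = 0.164) and no filter on low counts (adjusted p = 0.125). Calcrl, the receptor itself, had a log2 fold change of -0.12 ± 0.13 and was not called (edgeR adjusted p = 0.397). Ramp3, another receptor partner, was not tested, with a mean of 6.54 ± 3.45 CPM over sham (SD, n = 8) against 1.32 ± 1.28 CPM over IZ libraries (SD, n = 9). The related peptide gene Adm2 had at most 2 counts in any library.

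Ero1l (ENSMUSG00000021831, chr14:45283087-45318771, minus strand) encodes the hypoxia-inducible oxidase that drives disulfide formation in the endoplasmic reticulum (ER). It ran from 5.15 to 17.1 CPM in sham with a median of 11.6 CPM, and from 10.9 to 25.5 CPM in the IZ with a median of 17.6 CPM. The groups overlapped, with 5 of 9 IZ libraries above all sham libraries. The log2 fold change was 0.57 ± 0.21 (SE, edgeR adjusted p = 0.019). IZ replicates 2, 3 and 7, the libraries with most adipocyte marker counts, included the highest and the second highest Ero1l values. Replicate 2 had the highest adipocyte sum (206.4 CPM), but its Ero1l level of 15.9 CPM was below the IZ median. Without replicates 2, 3 and 7, an omission chosen after seeing the data, the log2 fold change was 0.45 and the call was lost (adjusted p = 0.0906). This omission took out the highest and the second highest Ero1l values of the IZ, so a smaller change followed from the choice. The part of adipocytes was not tested.

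The ER genes around Ero1l rose together. All 11 tested genes of ER disulfide formation were upregulated, where 36.3% of all features were. Like the other lists, this one was chosen with earlier results of these data known, so the count is a description and no enrichment was tested. For 10 of them the groups did not overlap, and 16.6% of all features had every IZ library above every sham library. All 11 were also upregulated when scaled by total counts alone. The median log2 fold change of the list was 1.78. The 3 highest were the peroxidase Gpx7 (2.60 ± 0.18) and the disulfide isomerases Txndc5 (2.21 ± 0.16) and Pdia4 (1.97 ± 0.15). The 3 lowest were the oxidase Qsox1 (1.45 ± 0.14), the peroxidase Gpx8 (1.44 ± 0.12) and the retention factor Erp44 (0.65 ± 0.13). The paralog Ero1lb rose from 4.6 ± 2.12 CPM (SD, n = 8) to 17.9 ± 3.51 CPM (SD, n = 9), a log2 fold change of 1.94 ± 0.22 (SE, edgeR adjusted p = 4.21e-08). The log2 ratio of Ero1l to Ero1lb lay between -0.18 and 2.09 in sham and between -1.22 and 0.42 in the IZ. The ratio was below all sham libraries in only 3 of 9 IZ libraries. Its means differed by -1.34, or by -1.09 with a prior count of 5. Low counts limit this ratio, with 7 to 41 counts of Ero1l and 2 to 15 of Ero1lb per sham library.

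Known HIF targets outside the 10 genes were found in both directions, as were all features tested (36.3% upregulated and 33.1% downregulated). Of 21 tested targets in glucose uptake and glycolysis, 7 were upregulated and 14 downregulated, with a median log2 fold change of -0.58. Some of these calls were near the threshold. The least stable of them was lost in 9 of the 17 fits that omitted a single library. Scaled by total counts alone, 7 of the 14 turned positive and the split was 12 upregulated and 6 downregulated. The 3 highest were the lactate exporter Slc16a3 (3.50 ± 0.25), the mutase Pgam1 (1.57 ± 0.17) and the regulatory kinase Pfkfb4 (1.56 ± 0.24). Slc16a3 rose from 3.22 ± 1.45 CPM (SD, n = 8) to 36.6 ± 10.3 CPM (SD, n = 9), with no overlap. The 3 lowest were the hexokinase Hk2 (-2.04 ± 0.23), the glycogen synthase Gys1 (-1.89 ± 0.18) and the pyruvate dehydrogenase kinase Pdk1 (-1.89 ± 0.17). Each of these 3 was below all sham libraries in all 9 IZ libraries and stayed negative under that scaling.

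Of 31 other tested targets, 11 were upregulated, 12 were downregulated and 8 were not called, with a median log2 fold change of 0.11. These counts lie near the shares of all features, so the split is not read as a result on these targets. Scaled by total counts alone, 5 of the 12 turned positive and the split was 20 upregulated and 6 downregulated. The 3 highest were the haem oxygenase Hmox1 (5.04 ± 0.54), the collagen crosslinking enzyme Lox (4.64 ± 0.28) and the chemokine receptor Cxcr4 (3.69 ± 0.25). The 3 lowest were the lipoprotein receptor Vldlr (-3.14 ± 0.39), the angiogenic factor Vegfa (-2.73 ± 0.24) and the transferrin receptor Tfrc (-2.58 ± 0.30). Vldlr was at -3.99 without IZ replicate 1. Vegfa fell from 187 ± 31.2 CPM (SD, n = 8) to 28.5 ± 15.1 CPM (SD, n = 9), with no overlap between the groups. Over all lists, 31 of 90 tested genes were upregulated and 40 downregulated, a total of 71, against 36.3% and 33.1% of all features. The macrophage, fibroblast and cardiomyocyte marker sums given above moved with both directions, and their part in these counts was not tested.

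**Figure D4:**
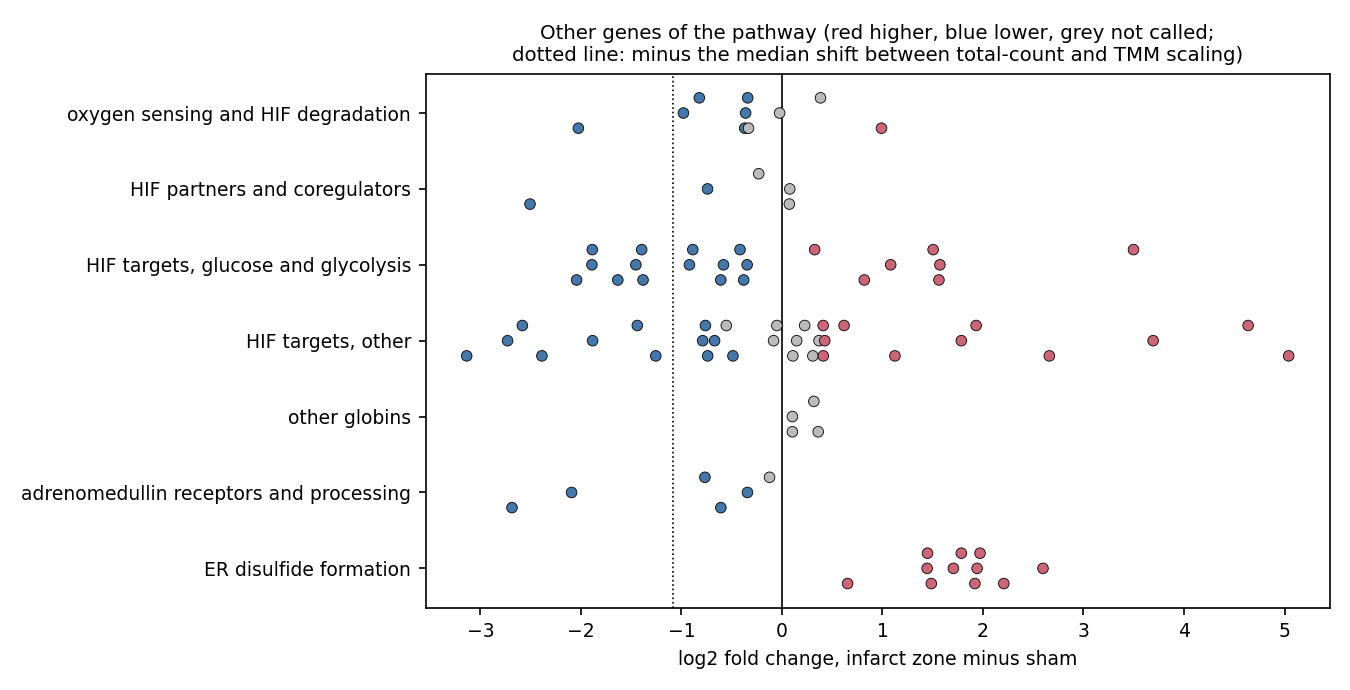
Log2 fold change between IZ and sham of each tested gene in 7 lists around the hypoxia genes, red upregulated, blue downregulated and grey not called. The dotted line is 1.09 below 0, the median shift between the scalings, and most blue points to its right turn positive under scaling by total counts alone. All 11 genes of ER disulfide formation are on the right, and the HIF targets lie on both sides.

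The genes differed in how much they varied among mice. In sham, the coefficient of variation of CPM was lowest for Epas1 (9.83%) and highest for Ero1l (37.8%). In the IZ it was lowest for Hif1a (19.5%) and highest for Mb (126.4%), and without replicate 1 the value of Mb was 51.5%. Egln1 went from 54.1% with replicate 1 to 16.8% without it, and Epas1 from 33.1% to 14.0%. For Hif1a, Ndufa4l2 and Ero1l the IZ value moved by little without that library, from 19.5% to 20.4%, from 23.7% to 25.1% and from 25.4% to 23.9%.

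To find which genes varied with each of the 10 among mice of 1 group, the group means were subtracted from log2 CPM, and Pearson correlations were taken over the 17 libraries with 9355 tested genes of at least 10 CPM on average. The best of many genes is picked this way and libraries share their scaling, so the values are a description. Mb varied most like the cardiomyocyte genes Myh6 (r = 0.98) and Tnni3 (r = 0.97), and these were 0.97 and 0.95 without IZ replicate 1. Egln1 varied most like Idh3b (0.96), Gm12337 (0.96) and Ak1 (0.95), which were 0.89, 0.88 and 0.84 without that library. Egln3 varied like Slc20a2 (0.88) and Gm45670 (0.84), and Bnip3 like Enah (0.90), Fdx1 (0.89) and Kcnj5 (0.88). Of these 5, the lowest without IZ replicate 1 were 0.75 for Fdx1 and Kcnj5. Epas1 varied most like Cd300lg (0.88), Ndufc2 (0.86) and Afap1l1 (0.85), but these fell to 0.65, 0.56 and 0.57 without IZ replicate 1.

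The genes that were upregulated or not called had other neighbours. Hif1a varied most like Bub3 (0.82), G3bp1 (0.80) and Samd4b (0.79), and Ndufa4l2 varied like Zmat5 (0.81) and Rps19bp1 (0.78). Cygb varied most like Smarca2 (0.90), Klf9 (0.84) and Prdm16 (0.81), of which Klf9 and Prdm16 were downregulated in the IZ while Cygb was upregulated. Ero1l varied most like Gm21188 (0.83), Agfg1 (0.79) and Cep192 (0.78), all upregulated. Adm varied most like Cldn5 (0.80), Klhdc8a (0.78) and Mccc2 (0.78), which were 0.72, 0.64 and 0.64 without IZ replicate 1.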

How the data were processed

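RNA of 8 sham LV and 9 IZ samples was sequenced as 3' end libraries. The authors demultiplexed reads with bcl2fastq, mapped them to the mouse build mm10 with Bowtie2 and counted them per gene with HTSeq, as the submitters' processing notes and the study's methods name them. They removed duplicates by molecular identifiers. The deposited values are raw counts, without normalization. The release of the annotation and the use of strand are not given in the sources used here. Each sample was assigned to its group by its label. The labels give no batch, so nothing could be repeated within batches, and p-values measure the spread between these mice. No library was a copy of another, the closest pair differing by 2.41 times sampling variance (chi-square per degree of freedom).

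Counts were fitted over the whole table with edgeR 4.0.16 in R 4.3.3: filterByExpr with a minimum of 10 counts, TMM scaling, two-sided quasi-likelihood F-test without covariates, Benjamini-Hochberg adjustment over 12301 features and a threshold of 0.05. Log2 CPM used a prior count of 1. Where no library of a group exceeded 3 counts, that number was taken as a floor. Ratios and likeness are descriptions without a test. Coordinates and overlaps came from GENCODE on GRCm38, the build of the files. BLAST 2.17.0 of the last 500 bases of each gene found no other gene with 100 matched bases at 90% identity. Intervals and floors cover counting error and the spread between samples, not systematic error. The fit was tested on simulated data with few changed genes, as many raised as lowered. It recovered 86.5% of them, and 3.89% of its calls were false. Most features were called in the real data, so the simulation cannot test the library scaling.

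The 10 genes, the lists and the markers were chosen with earlier results of these data known. All of the 10 genes are named, with all members of the short lists, the 3 highest and the 3 lowest log2 fold changes of the 3 longer lists (glucose targets, other targets and ER disulfide formation), and the 3 genes most like each of the 10. For Egln3, Mb and Ndufa4l2, 1 of these 3 is not reported here. Markers are given as counts and sums. As alternatives, libraries were scaled by total counts alone, by the upper quartile or by size factors of DESeq2, and genes were tested by the Wald test of that package (version 1.42.0). Low counts were kept, or a mean of 50 counts was required. Mitochondrially encoded features were dropped, and each library was left out. Replicate number was added as a block over replicates 1 to 8, which leaves out IZ replicate 9. Ratios were repeated with a prior count of 5, and without IZ replicate 1. The omission of IZ replicates 2, 3 and 7 together was added after seeing the data. Figures were drawn with Matplotlib 3.10.9 in Python 3.11.15.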

Additional observations from a re-analysis of the deposited data

Results flagged for a closer look

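Of 20 sets of values checked (10 genes in each group, on the log2 CPM scale), 4 held a library whose gap to its nearest neighbour took an unusually large share of the range of its group by Dixon's criterion, where chance alone flags about 1 in 20. IZ replicate 1 was such a library for 3 genes. It had 128.3 CPM of Epas1, at a gap of 0.56 of the range. It had 125.0 CPM of Egln1, at 0.65 of the range, and 6648 CPM of Mb, at 0.50 of the range. It was the highest IZ library in each case, and its summed cardiomyocyte markers of 31999 CPM were above the 7309 CPM of the next highest. In sham, replicate 6 was the lowest library for Epas1 with 184.5 CPM, at 0.61 of the range. The part of tissue composition in these gaps was not tested.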

How the results depend on the processing

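The direction and the call of Hif1a, Epas1, Egln1, Egln3, Mb, Cygb, Bnip3 and Ndufa4l2 held in all 26 alternatives, with adjusted p values up to 0.0288 (Ndufa4l2), and those of Ero1l in 24 of 25. Over the 10 genes, 255 of 258 single values kept side and direction. The exceptions were Adm at 0.62 under scaling by total counts alone (reversed, adjusted p = 0.0235) and at -0.63 without IZ replicate 1, and Ero1l without IZ replicates 2, 3 and 7. The count of called genes was 8 to 10 over all alternatives. The share of all features called under each of them is not given here, so these counts are not read as a result. Adm and Ero1l were filtered out at a minimum mean of 50 counts. For the genes of the lists, scaling by total counts alone gave 62 upregulated and 17 downregulated genes in place of 31 and 40, since it moved all values by about 1.09. The shares of upward calls among them were 78.5% and 43.7%. Sham and IZ samples share replicate numbers 1 to 8 but came from different mice. The deviations of same-numbered samples from their group means had correlations from -0.22 to 0.13, above 0.1 in only 1 of 8 pairs. Of the 8 sham samples 1 correlated best with its own number, so the numbers were not taken as pairs. With the replicate number as a block, IZ replicate 9 is left out. In that fit 9 of the 10 genes were called, 4 upregulated and 5 downregulated, and 65 genes of the lists (29 upregulated, 36 downregulated). The log2 ratios moved by less than the spread between replicates with a prior count of 5 and without IZ replicate 1. Low counts limit Adm, and the 95% interval of its log2 fold change spans more than 1 unit.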
